A study of Mus musculus with 4 samples.

Results

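The insulin-like growth factor binding proteins were followed, together with the ligand Igf1 and its receptor Igf1r, in cultured explants of the mouse dorsal root ganglion, where sensory neurons and their glia lie beside the spinal cord. The 8 genes (Igfbp2, Igfbp3, Igfbp4, Igfbp5, Igfbp6, Igfbp7, Igf1 and Igf1r) were taken by symbol from count tables of 23282 rows, and each symbol stood on 1 row. Of the 8, 7 had reads in at least 1 library and 5 averaged 500 reads or more. C57BL/6 mouse ganglia taken at embryonic day 13 were cultured, and the medium was changed from growth to myelination medium at day in vitro (DIV) 8 in every group. The 4 groups were stimulated ganglia at 19 DIV, unstimulated control ganglia at 19 DIV, stimulated ganglia at 11 DIV and control ganglia at 11 DIV. Electrical stimulation (ES) was given for 1 h at 20 Hz and 50 mV/mm at 10 DIV, so that harvest followed after 9 days or 1 day. Each group was 1 library from the pooled RNA of 3 explants. No difference below therefore has a replicate check, and a difference between treatments or days cannot be told apart from a difference between pools or libraries. An explant holds neurons, glia and fibroblasts together, and in such bulk RNA fewer cells of a type and less RNA per cell cannot be told apart.

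Insulin-like growth factors are secreted peptides that act through the receptor tyrosine kinase Igf1r, which signals to growth, survival and protein synthesis through PI3 kinase and Akt. In the extracellular fluid most of the ligand is held by the binding proteins, which can keep it from the receptor, prolong its life or release it near cells when they are cleaved. Igfbp7 is a more distant relative that binds these ligands weakly. In peripheral nerve the ligands are known to promote neurite growth and the survival and myelination of Schwann cells, and cultured rat Schwann cells are known to secrete Igfbp5.

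The finding turned on Igfbp4, Igfbp5 and Igfbp7, and their promoters are shown because these genes were high in the same library. Each is given as the 250 bases before the RefSeq start of the gene (GRCm38.p6), 5′ to 3′ on the strand of the gene. Capitals mark matches to TATAAA or GGGCGG on either strand. The windows lie at chr11:99040994-99041243 on the plus strand for Igfbp4, chr1:72874866-72875115 on the minus strand for Igfbp5 and chr5:77408046-77408295 on the minus strand for Igfbp7.
Igfbp4: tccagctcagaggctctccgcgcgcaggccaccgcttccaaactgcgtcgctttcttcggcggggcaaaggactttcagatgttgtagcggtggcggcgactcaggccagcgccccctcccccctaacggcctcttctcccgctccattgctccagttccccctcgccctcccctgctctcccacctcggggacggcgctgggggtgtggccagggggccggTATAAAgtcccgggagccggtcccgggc
Igfbp5: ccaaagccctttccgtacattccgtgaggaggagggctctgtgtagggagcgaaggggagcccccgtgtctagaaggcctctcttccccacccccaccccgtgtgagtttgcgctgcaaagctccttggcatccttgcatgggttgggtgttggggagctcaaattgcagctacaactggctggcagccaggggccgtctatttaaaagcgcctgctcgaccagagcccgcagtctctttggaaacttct
Igfbp7: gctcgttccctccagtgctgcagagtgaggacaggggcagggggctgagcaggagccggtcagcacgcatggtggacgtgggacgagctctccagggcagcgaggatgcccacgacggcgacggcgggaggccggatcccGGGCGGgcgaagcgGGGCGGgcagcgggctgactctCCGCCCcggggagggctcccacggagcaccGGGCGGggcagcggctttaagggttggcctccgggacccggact
The Igfbp4 window held 1 TATAAA, beginning 28 bases before the start, and the Igfbp7 window held 4 matches to GGGCGG between 110 and 44 bases before it. The Igfbp5 window held neither. Of the 32851 RefSeq windows of this length, 12.4% held TATAAA and 32.7% held GGGCGG. The letters CANNTG, present in 66.2% of all windows, stood once in the Igfbp4 and Igfbp5 windows and not in that of Igfbp7. Neither CCAAT (33.8% of windows) nor TGANTCA (6.75%) was in any of these 3 windows. None of the 5 motifs searched was thus shared by all 3 promoters. These matches are descriptions of letters, and all 8 genes had a window in the RefSeq table.

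Total counts lay between 5782834 and 7830950 reads, and a count of 0 allows up to 3 reads, or 0.376 to 0.518 CPM (reads per 1000000 of the TMM-scaled library). The counts were clumped: among genes averaging 500 to 3000 reads, squared differences between 2 libraries were 208 to 258 times what counting error gives. Of the genes that the other 3 libraries placed at 200 to 1000 reads, 9.39% had 0 reads in the ES library at 19 DIV, against 6.38%, 5.76% and 4.10% in control at 19 DIV, ES at 11 DIV and control at 11 DIV. Ratios below therefore carry a spread-adjusted 95% interval, an exact interval on counts divided by that factor. The size rule asked for a 2-fold difference, 50 reads in the higher library and a counting interval that excluded equality. The spread-adjusted rule asked in addition that equality lie outside a 99% interval computed from the divided counts. The markers of the labelled tissue were present, with summed CPM of 1592 to 4102 for 9 neuronal and 1479 to 1743 for 6 Schwann cell markers, although the Schwann cell marker Erbb3 had no more than 2 reads in any library.

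Igfbp4, Igfbp5 and Igfbp7 were higher in the ES library than in the control library at 19 DIV, 9 days after stimulation. Igfbp4 (protein-coding, chromosome 11, positions 99041244 to 99054392, plus strand, GRCm38), a binding protein known mainly as an inhibitor of ligand action, had 10080 reads in the ES library and 1525 in the control library at 19 DIV, and 948 (ES) and 838 (control) at 11 DIV. The ES library at 19 DIV stood alone, and the other 3 lay close together, between 145 and 221 CPM. At 19 DIV the CPM were 1262 (ES) and 221 (control), a ratio of 5.71 with a spread-adjusted interval of 2.48 to 15.7.

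Igfbp5 (protein-coding, chromosome 1, 72857932 to 72874884, minus strand), which binds both ligands and extracellular matrix, had 13773 reads in the ES library and 5183 in the control library at 19 DIV, and 2860 (ES) and 5197 (control) at 11 DIV. The control libraries of both days were nearly level, while the ES library was the higher one at 19 DIV and the lower one at 11 DIV. At 19 DIV the CPM were 1725 (ES) and 752 (control), or 2.29 times as high in ES (1.38 to 3.93). Igfbp2, its neighbour on the chromosome, lies 5457 bases away and had no reads in any library.

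Igfbp7 (protein-coding, chromosome 5, 77349240 to 77408041, minus strand), a secreted protein of the matrix and vessel wall, had 11337 reads in the ES library and 3720 in the control library at 19 DIV, and 2452 (ES) and 3802 (control) at 11 DIV. Its order over the 4 libraries was that of Igfbp5, and at 19 DIV the CPM were 1420 (ES) and 540 (control), or 2.63 times as high in ES (1.47 to 4.98). The annotated 3′ end of Igfbp7 overlaps by 85 bases that of Polr2b (chromosome 5, 77310147 to 77349324, plus strand), which encodes an RNA polymerase II subunit. Polr2b had 8690 reads in the ES library and 2366 in the control library at 19 DIV, and 1643 (ES) and 2389 (control) at 11 DIV. These were 76.7% (ES) and 63.6% (control) of the Igfbp7 reads at 19 DIV, and 67.0% (ES) and 62.8% (control) at 11 DIV. The Polr2b ratio at 19 DIV was 3.17 (1.55 to 7.13), and it too passed the spread-adjusted rule. For the other 8 subunit genes that averaged 500 reads or more, chosen after their values were seen, the ratio at 19 DIV ranged from 0.623 to 2.12. The sources used here do not give whether strand was used in counting, so the reads of Igfbp7 and Polr2b cannot be told apart.

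**Figure D1:**
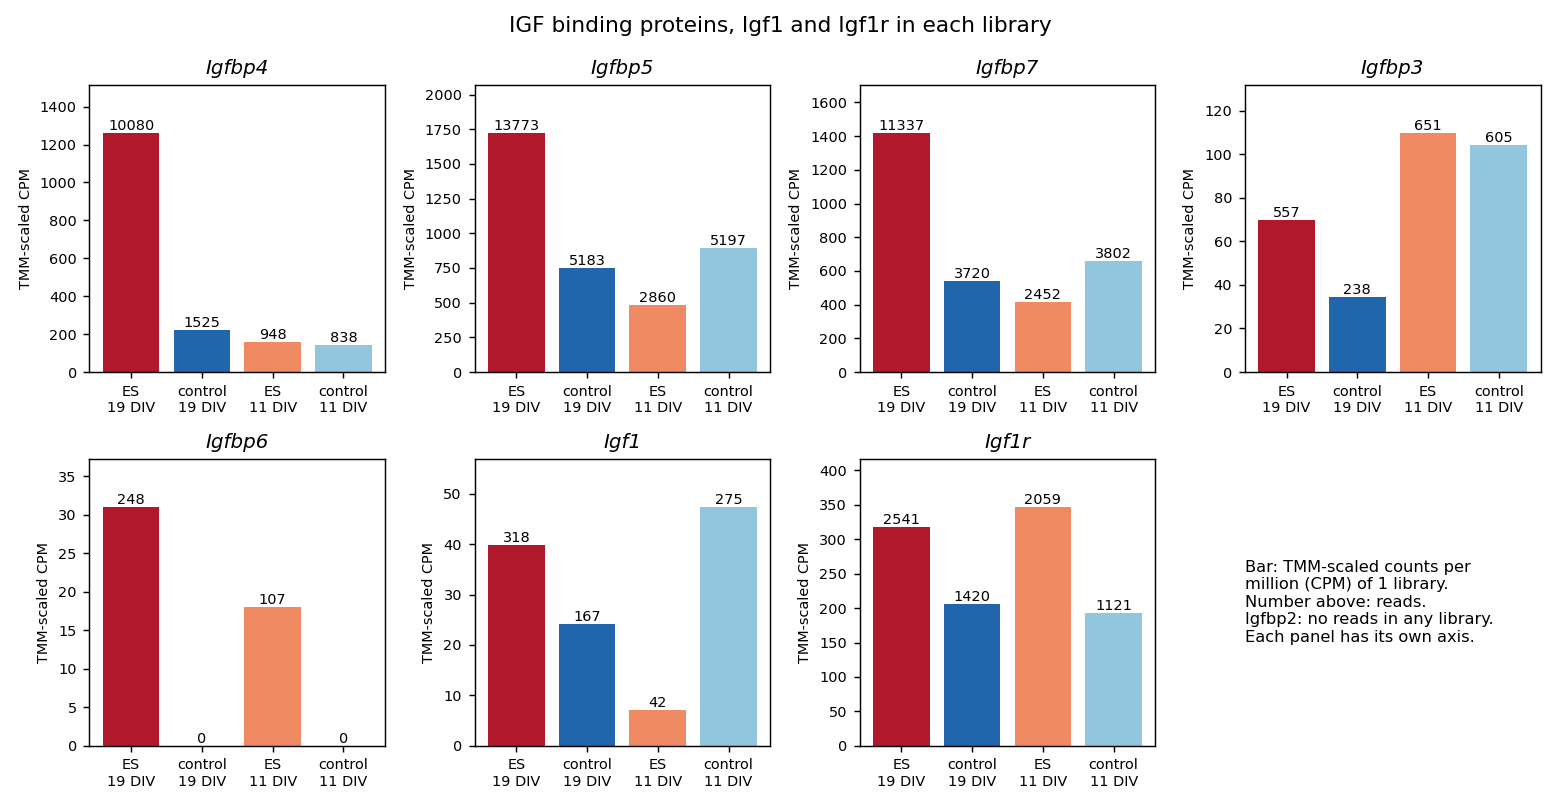
TMM-scaled CPM (vertical axis, 1 scale per panel) of 7 members in the 4 libraries, with the number of reads above each bar; 1 bar is 1 library, so there are no error bars. Igfbp4, Igfbp5 and Igfbp7 were highest in the ES library at 19 DIV, with 10080, 13773 and 11337 reads.

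**Figure D2:**
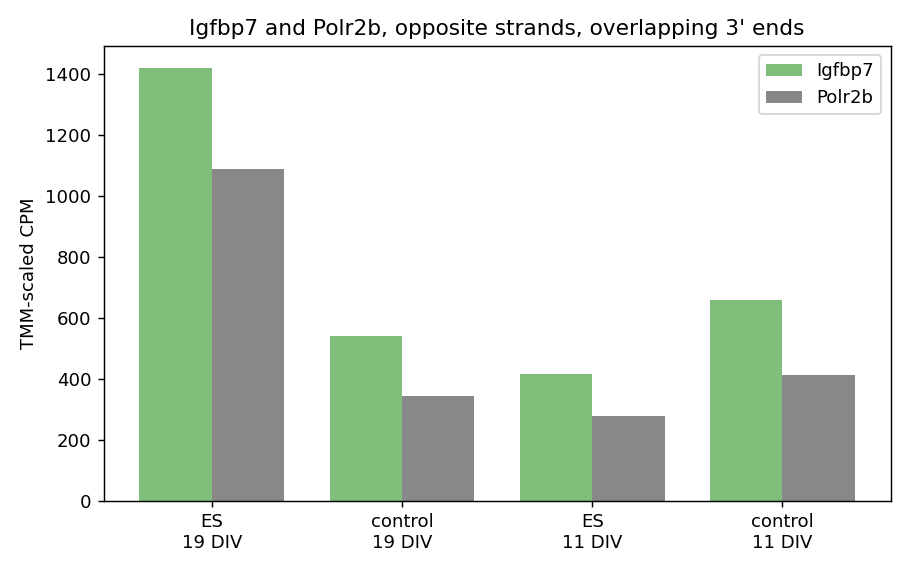
TMM-scaled CPM (vertical axis) of Igfbp7 and Polr2b, neighbouring genes on opposite strands, in the 4 libraries; 1 bar is 1 library. The bars of both genes keep the same order over the libraries, and Polr2b had 62.8% to 76.7% of the Igfbp7 reads.

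By the size rule 5 members were higher at 19 DIV, 0 were lower and 2 were neither. This rule called 60.6% of the 10027 genes with at least 50 reads, and 29.4% as higher, so the 5 of 7 carry little information by themselves. The spread-adjusted rule called 3 members higher and 0 lower, where it called 0.259% of all genes, and 0.13% as higher. Of the 2632 genes that averaged 500 reads or more over the 11 DIV libraries, which are outside the comparison, 0.494% were called higher. These held 5 members, Igfbp3, Igfbp4, Igfbp5, Igfbp7 and Igf1r, of which 3 were called, and both this background and the members were chosen with the results known. The count of 3 is 2 when Igfbp7 is left out because of Polr2b, an alternative chosen after seeing the data. The median log2 difference of the 7 members was 1.20, beside -0.04 over all genes tested. Igfbp6, with 0 reads in control, is among these 7 and among the 5 only through its reads in ES.

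Igfbp3 (chromosome 11, 7206086 to 7213923, minus strand), the main carrier of these ligands in blood, had 557 reads in the ES library and 238 in the control library at 19 DIV, and 651 (ES) and 605 (control) at 11 DIV. Both 11 DIV libraries were above both 19 DIV libraries. The ES to control ratio at 19 DIV was 2.02, with a spread-adjusted interval of 0.130 to 109 that included equality. Igfbp6 (chromosome 15, 102144362 to 102149511, plus strand), a binding protein that prefers Igf2, had 248 reads in the ES library and 0 in the control library at 19 DIV, and 107 (ES) and 0 (control) at 11 DIV. With 0 put at 3 reads and the ES count taken without its own error, Igfbp6 was at least 71.4-fold higher in ES at 19 DIV and at least 34.9-fold higher at 11 DIV. The exact intervals of these ratios began at 57.6 and 27.9 with counting error alone and at 0.0270 and 0.000752 with the spread adjustment, and the spread-adjusted ones thus included equality. Of the genes that the other libraries placed at 100 to 300 reads, 21.5% had 0 reads in control at 19 DIV and 15.8% in control at 11 DIV. Igfbp6 did not pass the spread-adjusted rule on either day.

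The ligand and its receptor differed less clearly. Igf1 (chromosome 10, 87858265 to 87937042, plus strand) had 318 reads in the ES library and 167 in the control library at 19 DIV, and 42 (ES) and 275 (control) at 11 DIV. The low value was that of ES at 11 DIV, at 0.149 times control. The interval of this ratio was 0.105 to 0.207 by counting error. With the spread adjustment it was 3.83e-09 to 17.7 and included equality. The ratio met the size rule but not the spread-adjusted rule. Igf1 overlaps the antisense gene Igf1os, which has no row of its own. Igf1r (chromosome 7, 67952827 to 68233668, plus strand) had 2541 reads in the ES library and 1420 in the control library at 19 DIV, and 2059 (ES) and 1121 (control) at 11 DIV. Both ES libraries were above both control libraries, with ratios of 1.54 (0.522 to 5.08) at 19 DIV and 1.80 (0.571 to 6.40) at 11 DIV, and both intervals included equality. These intervals are wide enough to hold a difference of 5-fold as well as none.

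At 11 DIV, 1 day after stimulation, no member passed the spread-adjusted rule, which called 0.315% of 9834 genes. The size rule called 2 members, Igfbp6 higher and Igf1 lower, against 58.6% of all genes. Igfbp5 had 483 CPM (ES) and 897 CPM (control), a ratio of 0.538 (0.257 to 1.08), and Igfbp7 had 414 CPM (ES) and 656 CPM (control), a ratio of 0.631 (0.276 to 1.38). Igfbp4 was nearly level, with 160 CPM (ES) and 145 CPM (control), a ratio of 1.11 (0.226 to 5.69). The point values of Igfbp5 and Igfbp7 thus lay on the other side of equality from those at 19 DIV. The median over the 7 members with 50 reads was 0.07 on the log2 scale, beside -0.03 over all genes tested. Igfbp6 is among these 7 only through its reads in ES.

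The ES difference was larger at 19 than at 11 DIV by 2.37 on the log2 scale for Igfbp4, 2.09 for Igfbp5 and 2.06 for Igfbp7. For Igf1r the corresponding value was -0.22. With 1 library per group no degree of freedom is left to test these differences between days.

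Set against 11 DIV, the ES library at 19 DIV had the same 3 binding proteins higher. Igfbp4 was at 7.89 times its 11 DIV level (2.74 to 32.8). Igfbp5 was at 3.57 times (1.85 to 7.57) and Igfbp7 at 3.43 times (1.68 to 7.81), while Polr2b was at 3.92 times (1.66 to 11.1) and the other 8 polymerase subunits ranged from 0.664 to 3.97 times. The spread-adjusted rule called these 3 members higher and 0 lower, where it called 0.425% of 9884 genes, 0.162% as higher. Of the 2899 genes averaging 500 reads or more over the control libraries, 0.552% were called higher, and 3 of the 4 members among them. The size rule called 4 members, with Igf1 as the fourth, all higher, where it called 61.4% of all genes and 30.9% as higher. The median over the 7 members was 1.78 on the log2 scale, beside 0.03 over all genes tested. This comparison shares the ES library at 19 DIV with the one against control, so a high value in that library enters both.

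In control cultures the same interval brought no member past the spread-adjusted rule, which called 0.618% of 10025 genes. Igfbp5 had 752 CPM at 19 DIV and 897 at 11 DIV, a ratio of 0.838 (0.447 to 1.57). Igfbp7 had 540 CPM at 19 DIV and 656 at 11 DIV, a ratio of 0.822 (0.388 to 1.74), and Igfbp4 had 221 at 19 DIV and 145 at 11 DIV, a ratio of 1.53 (0.368 to 7.75). Igfbp3 was at 0.331 times its 11 DIV level (0.00677 to 4.54) and was the 1 member called by the size rule, which called 60.8% of all genes. Over the 6 members with 50 reads the median log2 difference was -0.27, beside 0.02 over all genes.

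**Figure D3:**
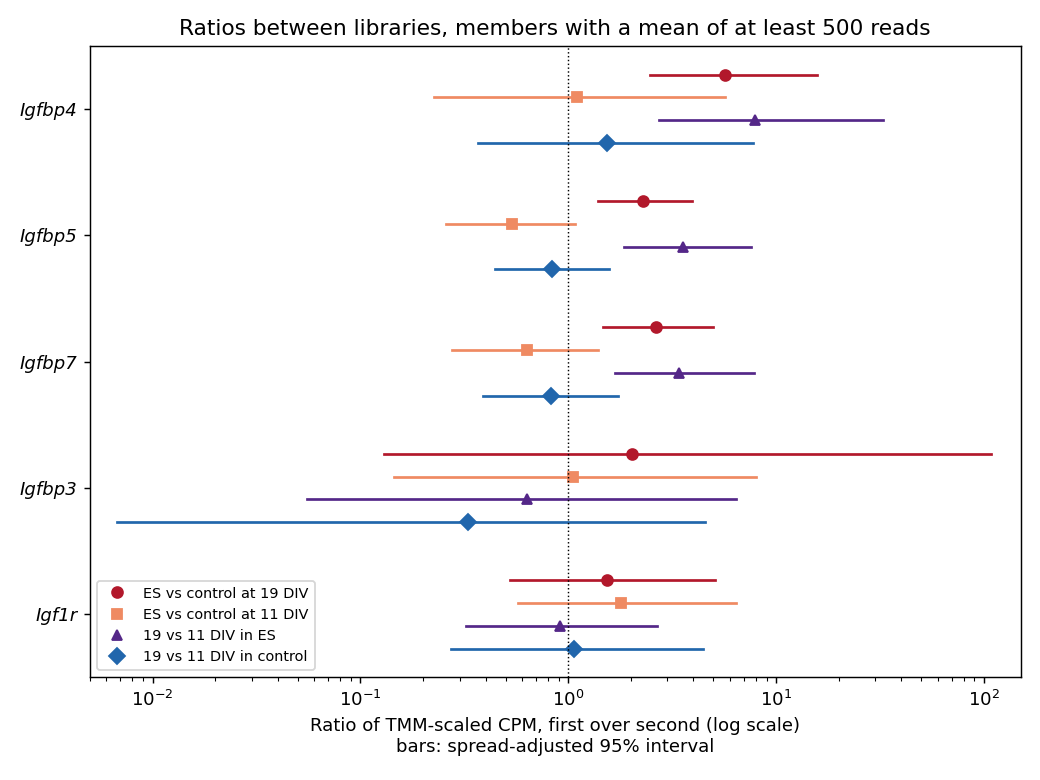
Ratio of TMM-scaled CPM (horizontal log axis, first library over second) of the 5 members averaging 500 reads or more in the 4 comparisons, with spread-adjusted 95% intervals as bars; the dotted line marks equality. The intervals of Igfbp4, Igfbp5 and Igfbp7 lie above 1 in both comparisons that use the ES library at 19 DIV and include 1 in both others.

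As a family, the binding proteins summed to 4508 CPM in ES and 1547 in control at 19 DIV, and to 1185 in ES and 1803 in control at 11 DIV. The ratio of sums at 19 DIV was 2.91, or 3.06 without Igfbp7 and 2.45 without Igfbp4. The make-up of the sum also differed between libraries, on a scale that does not depend on library size. Igfbp4 gave 28.0% of the Igfbp reads in ES and 14.3% in control at 19 DIV, and 13.5% in ES and 8.03% in control at 11 DIV. The exact Clopper-Pearson 95% intervals of these shares were 27.5% to 28.5% (ES) and 13.6% to 15.0% (control) at 19 DIV, and 12.7% to 14.3% (ES) and 7.51% to 8.56% (control) at 11 DIV, and they cover counting error only. Igfbp5 gave 38.3% in ES and 48.6% in control at 19 DIV, and 40.8% in ES and 49.8% in control at 11 DIV. Igfbp7 lay between 31.5% and 36.4%. As point values, the share of Igfbp4 was thus higher, and those of Igfbp5 and Igfbp7 lower, in the ES library of each day. The shares of a library depend on each other, and their intervals carry no spread adjustment, so these differences were not tested.

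**Figure D4:**
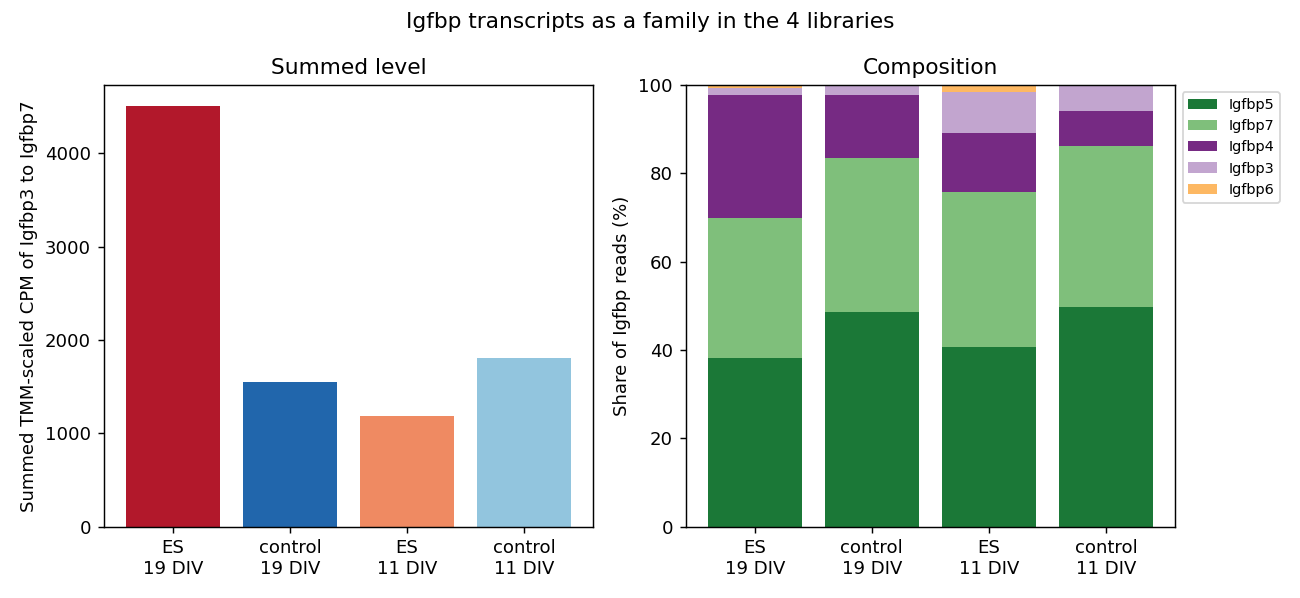
Left, summed TMM-scaled CPM of the Igfbp genes in each library; right, the share of each gene in the Igfbp reads of that library (%). The sum was 4508 CPM in ES at 19 DIV and 1185 to 1803 in the other libraries, and Igfbp4 gave 28.0% of it in ES at 19 DIV.

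Across the 4 libraries the profiles of Igfbp5 and Igfbp7 lay 0.11 apart, as the root mean square distance between log2 CPM values centred on their mean. Igfbp4 lay 0.78 from Igfbp5 and 0.72 from Igfbp7, and Igf1r lay 0.76 from Igfbp5 and 0.71 from Igfbp7. Of the 2962 other genes averaging 500 reads or more, those nearest to Igfbp5 were Creb1 (0.050), Tapbp (0.056) and Rab24 (0.059). The nearest to Igfbp7 were Tapbp (0.058), Il1rn (0.086) and Igfbp5 itself, with Polr2b at 0.11 as the 6th. Igfbp4 had no close neighbour, the nearest being Ppfia1 (0.34), Golgb1 (0.38) and Limch1 (0.40). For Igf1r they were Cnot6 (0.039), Hcfc1r1 (0.041) and Sqle (0.046), and for Igfbp3 Nav1 (0.040), Rnaset2b (0.097) and Gdi2 (0.10). These distances rest on 4 libraries and describe only the order and size of 4 values.

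In the fit over all 4 libraries with stimulation and day as additive factors, edgeR's quasi-likelihood test with Benjamini-Hochberg adjustment called 0 of the 7 members tested for either factor. It called 0% of the 10050 genes tested for either, with 112 genes at an unadjusted p under 0.05 for stimulation and 204 for day. Igfbp4 had a shared log2 difference of 1.33 for stimulation and 1.80 for day, each with an edgeR adjusted p of 1. Voom with limma also called 0 genes for both factors, with 568 and 702 genes at an unadjusted p under 0.05. DESeq2 called 5% of genes for stimulation and 8.28% for day. Among them were Igfbp6 for stimulation (DESeq2 adjusted p = 0.0349), with 0 reads in both control libraries, and Igfbp4 for day (log2 difference 1.80, DESeq2 adjusted p = 0.0234). An additive fit leaves 1 residual degree of freedom. It takes the ES difference to be equal on both days and the day difference to be equal in both treatments. The point values of Igfbp4, Igfbp5 and Igfbp7 were not equal in this way. For Igfbp4 the log2 difference between days was 2.98 in ES and 0.61 in control, so the shared value of 1.80 described neither.

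The rest of the pathway was read from a list of 55 genes outside the members, of which no gene passed the spread-adjusted rule in any of the 4 comparisons. That rule called 0.259% to 0.618% of all genes in them. It called the same number of genes with a minimum of 500 reads in the higher library, so no gene with fewer reads passed. Many genes of the list had fewer, and Pik3r2, with 569 reads (ES) and 0 (control) at 11 DIV, did not pass either. The lack of calls therefore does not show that the list was level. At 19 DIV the size rule called 11 of the 38 with at least 50 reads higher in ES, 10 lower and 17 neither, where it called 60.6% of all genes. The median log2 difference was -0.08, beside -0.04 over all genes. At 11 DIV the counts were 11 higher, 5 lower and 21 neither of 37, where the rule called 58.6% of all genes, with a median of -0.08. Between 19 and 11 DIV they were 9 higher, 9 lower and 19 neither in ES, and 9, 5 and 23 in control. The rule called 61.4% of all genes in ES and 60.8% in control. The other binding proteins, Igfbp1, Igfbpl1 and Igfals, had no reads in any library.

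Igf2, the second ligand, had 237 reads in the ES library and 5 in the control library at 19 DIV, and 526 (ES) and 1037 (control) at 11 DIV. Control at 19 DIV was the low library. Igf2r, a receptor that clears Igf2, was nearly level, with 845 reads in the ES library and 706 in the control library at 19 DIV, and 510 (ES) and 591 (control) at 11 DIV. Insr, the insulin receptor, had 4 reads in the ES library and 201 in the control library at 19 DIV, and 97 (ES) and 89 (control) at 11 DIV. At 19 DIV Igf2 and Insr were thus each close to 0 in 1 library, Igf2 in control and Insr in ES. Pappa, a protease known to cleave Igfbp4 and Igfbp5, had 88 reads in the ES library and 587 in the control library at 19 DIV, and 758 (ES) and 515 (control) at 11 DIV. Stc1, a relative of the Pappa inhibitor Stc2, had 124 reads in the ES library and 537 in the control library at 19 DIV, and 598 (ES) and 652 (control) at 11 DIV. Pappa and Stc1 were thus both lowest in the ES library at 19 DIV. Their ratios at 19 DIV were 0.129 and 0.199, with spread-adjusted intervals that reached up to 3.75 and 4.90. Of the 5 listed proteases and inhibitors with at least 50 reads at 19 DIV, the size rule called 1 higher, 2 lower and 2 neither. It called 60.6% of all genes. How these genes relate to Igfbp4 was not tested.

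Among proteins that carry an IGFBP domain, the matricellular Ctgf and Cyr61 were at 2.55 (0.308 to 54.5) and 1.12 (0.216 to 6.45) times control in ES at 19 DIV. Downstream of the receptor, the adaptors Grb2 and Grb10 were at 0.887 (0.217 to 3.65) and 2.35 (0.549 to 14.5) times control. Akt1, a kinase activated by the receptor, was at 1.38 (0.601 to 3.34) and Gsk3b, a kinase that Akt inhibits, at 0.421 (0.161 to 1.02). Of the RNA-binding proteins named for Igf2 mRNA, Igf2bp2 was at 0.831 (0.219 to 3.13), and Igf2bp3, with 96 reads in the ES library and 751 in the control library, was at 0.110 times control with an interval up to 2.42. None of these intervals excluded equality.

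Cell type markers differed between the same libraries. Summed over 8 fibroblast markers, led by Col1a2 and Col1a1, the level was 12486 CPM in ES and 9087 in control at 19 DIV, and 6568 in ES and 4819 in control at 11 DIV. The ratio of these sums at 19 DIV was 1.37. For the other marker lists given below it was 2.74 (mural), 2.09 (perineurial), 1.13 (Schwann cell), 1.03 (macrophage), 0.678 (satellite glia) and 0.407 (neuron). The endothelial sum was 0 in control at 19 DIV. The ratios of the members were 5.71 for Igfbp4, 2.29 for Igfbp5 and 2.63 for Igfbp7, and how they relate to the marker sums was not tested. By the size rule, which called 60.6% of all genes, 0 of the 7 fibroblast markers with at least 50 reads were called at 19 DIV. Each of these 7 nevertheless had a higher CPM in ES than in control. Their median log2 difference was 0.58, beside -0.04 over all genes tested. Dpt had no reads in any library. The 9 neuronal markers, led by Prph and Stmn2, summed to 1592 CPM in ES and 3911 in control at 19 DIV. Of the 8 with at least 50 reads, 6 were lower by the size rule and 3 by the spread-adjusted rule. In that comparison these rules called 60.6% and 0.259% of all genes, higher or lower. At 11 DIV they summed to 4102 in ES and 3089 in control, so the library with the most Igfbp4, Igfbp5 and Igfbp7 had the lowest neuronal sum.

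The 6 Schwann cell markers used, led by Sox10 and Ngfr, summed to 1743 CPM in ES and 1537 in control at 19 DIV, and to 1535 in ES and 1479 in control at 11 DIV. The 4 satellite glia markers, led by Apoe and Kcnj10, summed to 1184 in ES and 1746 in control at 19 DIV, and to 1581 (ES) and 790 (control) at 11 DIV. Apoe gave most of each sum, with 1509 CPM (ES) and 674 (control) at 11 DIV. On that day Kcnj10 had 0.84 (ES) and 10.9 (control) and Glul 69.7 (ES) and 105 (control), against the direction of the sum. At 19 DIV Glul again went the other way, with 85.8 (ES) and 48.2 (control), and Fabp7 had no more than 7 reads in any library. Mural markers, with most reads from Acta2 and Tagln, summed to 269.7 CPM in ES and 98.5 in control at 19 DIV, and to 261 (ES) and 122 (control) at 11 DIV, and Myh11 and Cnn1 had no reads. Perineurial markers, led by Slc2a1 and Itgb4, summed to 276 in ES and 132 in control at 19 DIV, with Cldn1 and Lypd2 at 0. At 11 DIV they summed to 114 (ES) and 133 (control). On that day Slc2a1 had 24.0 CPM (ES) and 105 (control), and Itgb4, in the other direction, 90.5 (ES) and 28.7 (control). Endothelial markers, led by Cdh5 and Kdr, summed to 8.01 CPM in ES and 0 in control at 19 DIV, and to 48.3 (ES) and 23.8 (control) at 11 DIV, and Pecam1, Tek, Cldn5 and Tie1 were at 0 in all libraries. Macrophage markers, led by Csf1r and C1qa, lay between 32.4 and 58.1 CPM, with Aif1 and Cd74 at 0. The macrophage markers disagreed with each other under this sum. At 19 DIV Csf1r had 28.4 CPM (ES) and 21.6 (control), C1qa 0 (ES) and 31.0 (control), and Ptprc 29.7 (ES) and 0 (control). The part of these cell types in the Igfbp values was not tested.

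**Figure D5:**
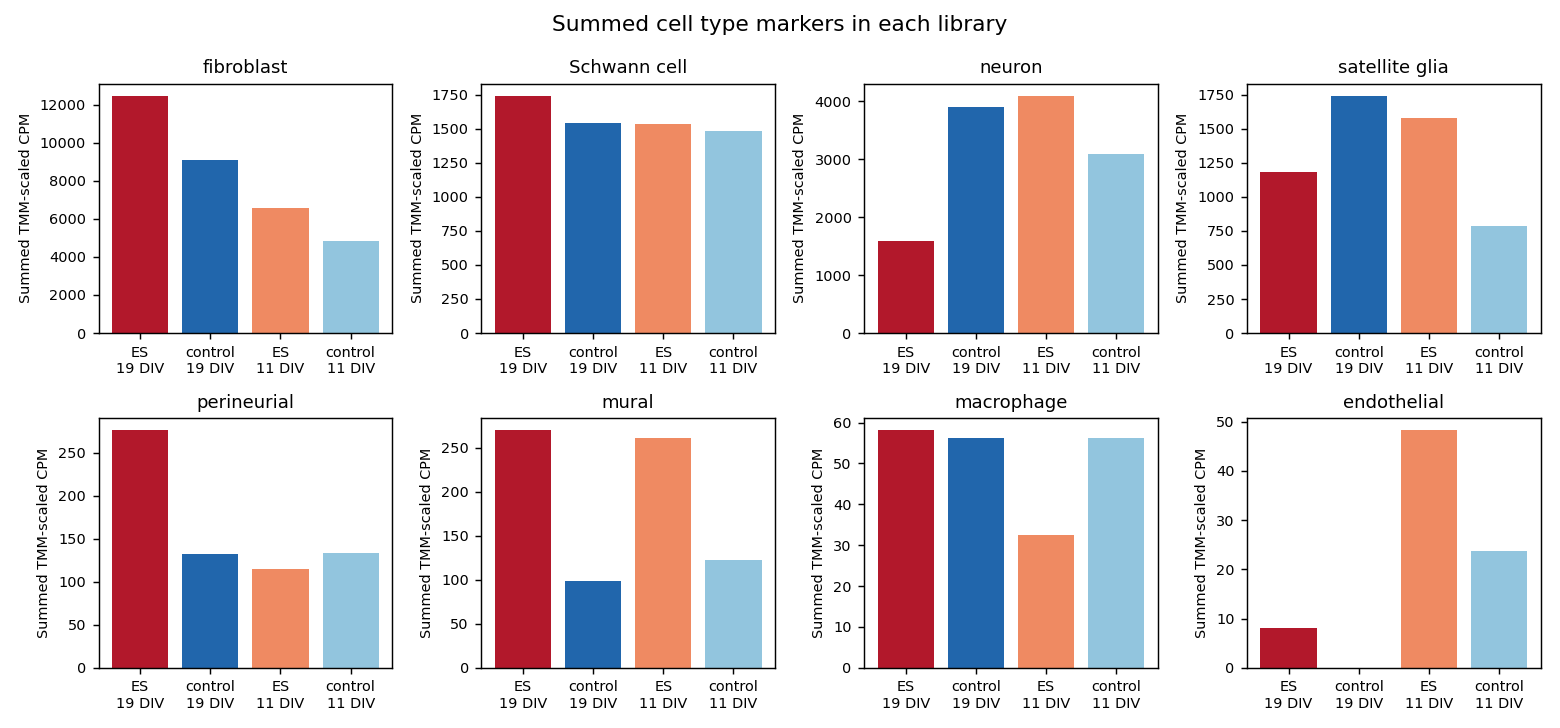
Summed TMM-scaled CPM (vertical axis, 1 scale per panel) of the marker lists of 8 cell types in each library. The fibroblast sum was 12486 CPM in ES and 9087 in control at 19 DIV, and the neuronal sum was 1592 in ES and 3911 in control.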

How the data were processed

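RNA-seq counts were analysed for 4 libraries, 1 per group. The authors deposited unnormalised whole-number read counts by gene symbol. Bowtie2, bedtools and the build mm10 appear in the submitters' processing notes; versions, the use of strand and the handling of duplicate reads were not stated in the sources used here. Per the labels' protocols, 500 ng of total RNA entered a kit named there as Quant-Seq; CPM were not divided by length, so shares and percentages of 1 gene in or over another are of reads, not of transcripts, and "led by" names the markers with the most reads.

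Counts were scaled with TMM (edgeR 4.0.16, R 4.3.3) over the 4 libraries. Ratios of CPM carry exact conditional (Clopper-Pearson) 95% intervals. The spread factor was the median squared difference relative to counting error, over the median of the chi-square distribution. Log2 differences used a prior count of 2. The additive fit used filterByExpr, a Benjamini-Hochberg threshold of 0.05 and DESeq2 1.42.0 and limma 3.58.1 as alternatives. Python 3.11.15 with scipy 1.17.1 did the rest. Gene positions came from GENCODE on GRCm38, the assembly of mm10, and promoters from RefSeq. Both rules and the fit were run on simulated data with settings that differ from these data. For the rules, counts were unclumped or clumped less than the factor of 208 to 258 seen here. For the fit, the simulated ES difference was equal on both days. These runs therefore do not show how the rules or the fit perform here. The p-values rest on how far the 4 pooled libraries depart from an additive fit, not on a spread between replicates. An ES difference that changes with day counts there as error.

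The members, the lists, the spread-adjusted rule and the alternatives were chosen with earlier results of these data known. Named were all members, the 2 genes with the most reads per role of the pathway list, those past the spread-adjusted rule, the 3 genes nearest in profile to each member with a mean of at least 500 reads, and the 2 markers with the most reads per list. Of the Schwann cell markers chosen, 2 are not reported here and were left out of the sums.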

Additional observations from a re-analysis of the deposited data

Results flagged for a closer look

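The ES minus control difference had opposite signs at 19 and 11 DIV for 3 members. On the log2 scale it was 1.20 at 19 DIV and -0.89 at 11 DIV for Igfbp5, a difference between days of 2.09. For Igfbp7, whose reads cannot be told apart from those of Polr2b, it was 1.39 at 19 DIV and -0.66 at 11 DIV, a difference of 2.06. For Igf1 it was 0.71 at 19 DIV and -2.69 at 11 DIV, a difference of 3.40, with 42 to 318 reads per library. None of these differences between days was tested, since each group was 1 library.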

How the results depend on the processing

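Every fold of a member was recomputed under 4 other scalings and after thinning to the smallest total. All 135 such values lay within the spread-adjusted interval of the value reported, and 0 changed side of equality for a called member. The alternatives rescale or thin the same counts and the intervals are wide, so this could hardly have come out otherwise. It says nothing about differences between pools. For Igfbp4 in ES against control at 19 DIV they ranged from 5.67 to 5.76, for Igfbp5 from 2.28 to 2.32 and for Igfbp7 from 2.61 to 2.66. In that comparison a 3-fold minimum left 2 members past the size rule, beside 48.1% of genes, and 1, Igfbp4, past the spread-adjusted rule, beside 0.18%. At 11 DIV a 1.5-fold minimum gave 5 members past the size rule, beside 72.9% of genes, and a minimum of 500 reads gave 0, beside 40.6%. Between days in control, upper quartile factors gave 2 members, beside 60.6% of genes, and a 1.5-fold minimum 3, beside 74.8%. DESeq2 called 1 member for stimulation and 1 for day, and 503 and 832 genes in all, where edgeR called 0. The spread-adjusted rule with a 95% interval called 81 genes at 11 DIV, 92 at 19 DIV, 123 between days in control and 90 in ES, in place of 31, 26, 62 and 42. With a spread factor from genes of 2000 to 20000 mean reads it called 5, 23, 16 and 25, and the 3 members at 19 DIV were still called. With total counts it called 17 genes at 11 DIV, or 19 without Rn45s, and a 3-fold minimum left 14 at 11 DIV and, between days, 35 in control and 27 in ES. The size rule with 500 reads called 1428, 1975, 1746 and 1932 genes in the same 4 comparisons, in place of 5758, 6081, 6091 and 6069. No paired analysis was possible because each group was 1 library. Leaving out a library leaves no residual degree of freedom in the additive fit and gives the difference of the other day. Depth and clumping limit Igfbp3, Igfbp6 and Igf1, whose intervals could not exclude equality.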
